A study of Mus musculus with 18 samples.

Results

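The transcription factors of the integrated stress response were followed in mouse liver after repeated injection of asparaginase. They were 7 genes, Atf4, Atf5, Atf3, Ddit3, Cebpb, Cebpg and Nupr1, taken by name from 37315 genes in the count table for their known roles in this response. These genes and the gene lists below were chosen with earlier results of these data known. All 7 were among the 16213 genes that passed the filter on low counts. Asns, which encodes asparagine synthetase and is a classical target of ATF4, was carried along as a readout of the pathway.

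In the integrated stress response, kinases that sense stress phosphorylate the translation factor eIF2. In amino acid shortage this kinase is GCN2, which responds to uncharged tRNA. General protein synthesis then falls, while the mRNAs of ATF4, ATF5 and CHOP, which carry upstream reading frames, are translated more. ATF4 is a basic leucine zipper (bZIP) protein that binds DNA mostly as a heterodimer with C/EBP proteins, at composite C/EBP-ATF sites, and it activates genes of amino acid synthesis, amino acid transport and tRNA charging. Liver responds to asparaginase, an enzyme drug for leukaemia that breaks down asparagine in the blood, through this pathway.

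Polyadenylated RNA from 18 liver samples was sequenced to ask how the response depends on age. All mice were of the C57BL/6J background, with no altered allele given, and were 2, 8 or 16 weeks old. The 3 asparaginase groups received daily intraperitoneal L-asparaginase (Elspar), dosed at 3 IU for each gram the mouse weighed, and the 3 PBS groups received the same volume of phosphate-buffered saline. Mice of 2 and 16 weeks had 7 injections and mice of 8 weeks had 8, and all were killed 7.5 h after the last one. Each group had 3 libraries. By their labels the asparaginase groups held 1, 2 and 2 males at 2, 8 and 16 weeks, and the PBS groups 2, 1 and 1, so that the mix of sexes differed between treatments at every age and was carried as a term in the tests. Whether a library came from 1 mouse is not certain at 2 weeks, as given next, and p-values measure the spread between these libraries.

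Total counts were between 24690871 and 46949361 per library. Hepatocyte markers were all present in every group, with summed levels of 78200 to 127000 CPM (counts-per-million values on library sizes scaled by TMM) per library. Of the 2-week libraries, 3 (asparaginase replicate 3 and PBS replicates 1 and 2) held transcripts of both sexes although each is labelled with 1 sex. Summed markers of squamous epithelium reached 860, 455 and 11.6 CPM in the 8-week asparaginase libraries, against at most 8.23 CPM in the 8-week PBS libraries. Pancreatic acinar markers are given beside Nupr1, and their part in the levels of the other factors was not tested. Skeletal muscle markers summed to 46.8 to 275 CPM in 16-week PBS libraries and 3.63 to 21.1 CPM in 16-week asparaginase libraries. In the 8-week asparaginase libraries they reached 2450 CPM, and their part in the results was not tested. Calls of the 7 genes and of Asns are named where lost without the libraries of both sexes or 8-week asparaginase replicates 1 and 2.

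The stretches just before the start sites were searched for the composite element through which ATF4 is known to act. Sequence outside these 250 bases was not searched, so the search cannot show which members lack the element. Each line gives the 250 bases upstream of the RefSeq start of a gene (GRCm38.p6), 5′ to 3′ on the strand of the gene, and capitals mark the match to TGATGNAA or its reverse complement TTNCATCA.
Nupr1, chr7:126625471-126625720, minus strand: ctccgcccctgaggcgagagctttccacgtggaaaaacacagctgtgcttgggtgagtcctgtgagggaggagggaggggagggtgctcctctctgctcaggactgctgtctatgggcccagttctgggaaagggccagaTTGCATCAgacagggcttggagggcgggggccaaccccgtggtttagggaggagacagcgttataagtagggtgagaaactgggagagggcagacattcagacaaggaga
Atf3, chr1:191183334-191183583, minus strand: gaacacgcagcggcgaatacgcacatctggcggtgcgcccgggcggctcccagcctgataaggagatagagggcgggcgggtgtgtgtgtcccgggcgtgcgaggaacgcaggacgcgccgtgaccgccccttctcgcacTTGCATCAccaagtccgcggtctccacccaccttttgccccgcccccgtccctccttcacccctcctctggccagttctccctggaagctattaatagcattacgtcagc
Asns, chr6:7693210-7693459, minus strand: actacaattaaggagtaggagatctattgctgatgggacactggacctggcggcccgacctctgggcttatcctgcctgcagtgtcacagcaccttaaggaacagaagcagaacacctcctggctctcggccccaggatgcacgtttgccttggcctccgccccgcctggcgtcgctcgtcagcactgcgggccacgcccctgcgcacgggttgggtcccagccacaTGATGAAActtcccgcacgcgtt
Nupr1 and Atf3 carried the same 8 letters, TTGCATCA, at the same distance, 110 to 103 bases before the start, and Asns carried TGATGAAA at 23 to 16 bases. The element was searched on both strands and was present in 3.45% of 32851 promoter windows of this length. No match lay in the windows of Atf4, Atf5 (both of its starts), Ddit3, Cebpb or Cebpg, which says only that these letters are absent there. The AP-1 motif TGANTCA, present in 6.75% of windows, matched in Ddit3 at 242 to 236 bases before the start and in no other member. The cAMP response element TGACGTCA (1.55% of windows) and the C/EBP motif TTGNGNAA (11.7%) matched in none of the 7 members, and no motif match overlapped another.

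Compared per kilobase of exon, Atf5 was the most abundant member in all 6 groups and Nupr1 and Atf3 were the least abundant. In PBS livers of 2 weeks Atf5 stood at 70.4 ± 16.4 CPM per kb (mean ± SD, n = 3 here and below). Atf4 followed at 24.9 ± 3.02, Cebpb at 22.0 ± 4.62, Cebpg at 7.74 ± 0.199, Ddit3 at 4.07 ± 0.698, Atf3 at 0.678 ± 0.0400 and Nupr1 at 0.516 ± 0.0699 CPM per kb. The order of the first 5 was the same in every group except that Atf4 and Cebpb changed places. Their ranges overlapped in all 3 PBS groups and in the 8-week asparaginase group. Nupr1 lay below Atf3 in every PBS group and above it in the asparaginase groups of 2 and 16 weeks, at 3.71 ± 1.54 against 1.25 ± 0.813 CPM per kb at 2 weeks and, with overlapping ranges, 1.78 ± 1.11 against 1.21 ± 1.01 at 16 weeks. Levels per kilobase use the union of annotated exons and shift if liver uses shorter transcripts. All levels below are CPM, not per length.

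**Figure D1:**
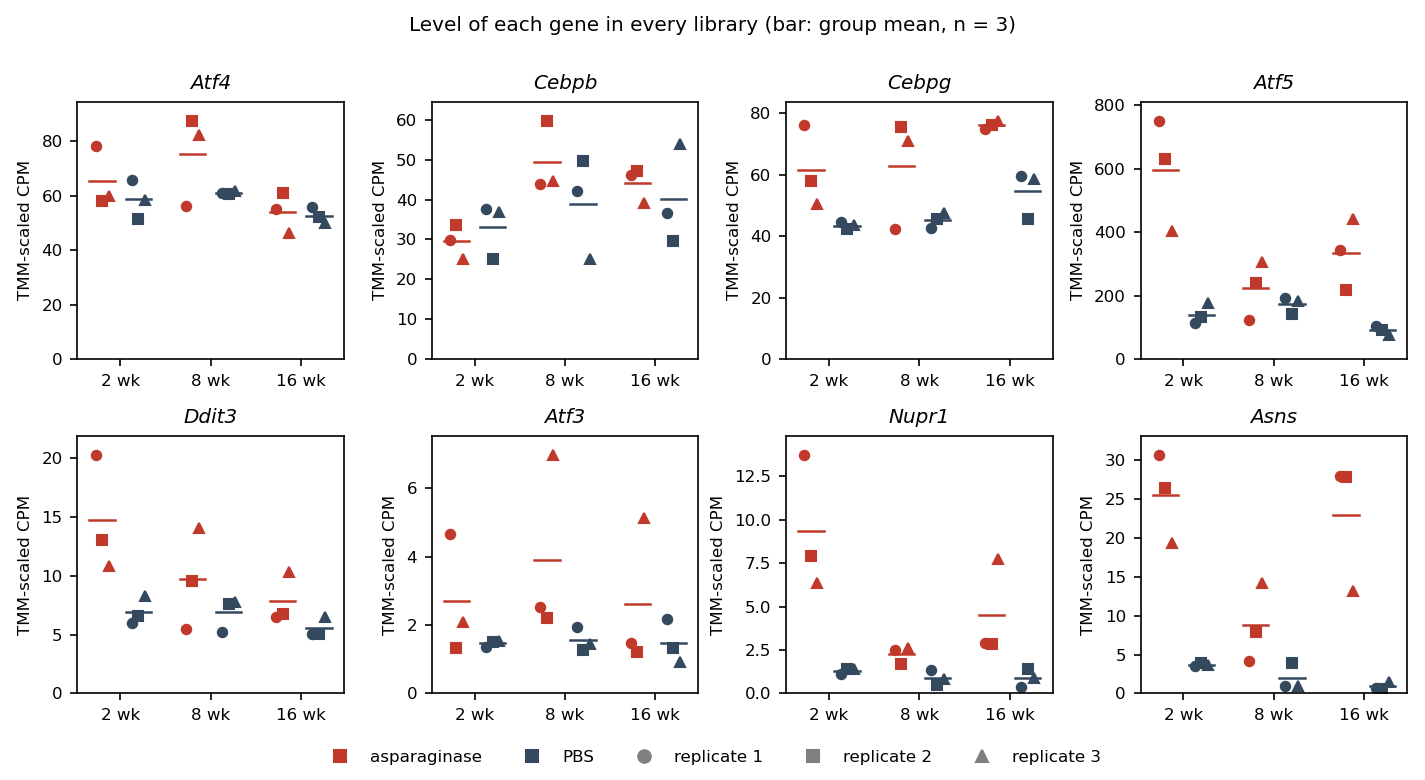
Level of each of the 7 genes and of Asns in every library (vertical axes, TMM-scaled CPM, linear from 0), by age in weeks, with asparaginase libraries left in red and PBS libraries right in dark blue. Marker shapes give the replicate, which pairs no mice, and bars are means of 3 libraries; the asparaginase libraries of Nupr1 and Asns lie above the PBS libraries at every age, and those of Atf4 and Cebpb overlap with PBS at every age.

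With asparaginase, transcripts of Nupr1, Atf5, Atf3 and Cebpg rose, while those of Atf4 itself and of Cebpb overlapped between treatments at every age and did not pass the test. Averaged over the 3 ages, Nupr1 was 5.01-fold higher, Atf5 2.69-fold, Atf3 2.13-fold and Cebpg 1.36-fold, all 4 past the threshold (adjusted p under 0.05 by edgeR's quasi-likelihood test with Benjamini-Hochberg adjustment over all genes). Ddit3 was 1.53-fold higher and missed it. The calls of Nupr1 and Atf5 held in all 26 alternative settings, that of Cebpg in 21 and that of Atf3 in 11. That is 4 of 7 members higher and 0 lower, against 2.55% of all tested genes higher and 5.41% called in either direction. Since the members were chosen with earlier results of these data known, this share describes the set and is no test of it. The median log2 fold change of the 7 members was 0.61, beside 0.0046 over all genes tested. These are whole-liver RNAs, in which fewer cells of a type and less RNA per cell cannot be told apart.

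Within single ages the counts were smaller. At 2 weeks 2 members rose, Nupr1 and Atf5, and 0 fell, against 0.327% of all genes higher (0.432% called in all). At 8 weeks 0 of 7 passed by edgeR, against 0.364% of all genes, with 2 at an unadjusted p under 0.05 (Nupr1 and Atf3), while DESeq2 called 1 (Nupr1) and limma-voom 0. At 16 weeks 1 member, Atf5, rose, against 0.191% of all genes higher (0.234% called in all). The asparaginase libraries lay wholly above the PBS libraries at 2 weeks for Nupr1, Atf5, Ddit3 and Cebpg, at 8 weeks for Nupr1 and Atf3, and at 16 weeks for Nupr1, Atf5 and Cebpg. The same separation was found in 8.09%, 7.29% and 10.1% of all tested genes at these ages, and in 0.555% at all 3 ages together, where Nupr1 was the one member.

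**Figure D2:**
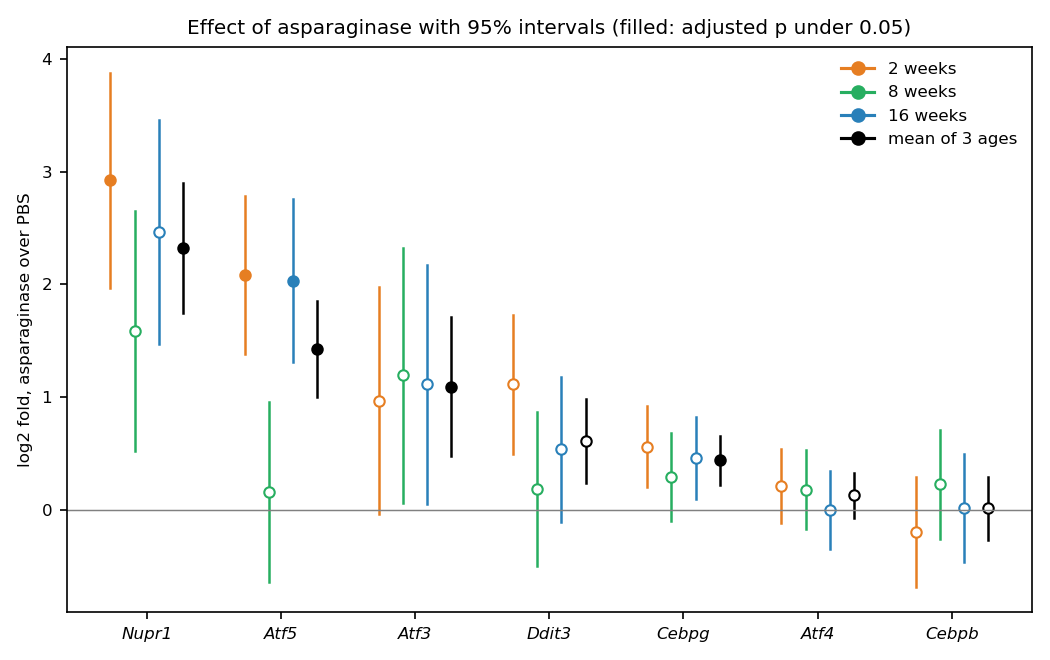
Log2 fold change of asparaginase over PBS (vertical axis) for the 7 genes, fitted at 2, 8 and 16 weeks and as the mean of the 3 ages, with 95% intervals from the edgeR fit. Filled points have an adjusted p under 0.05; the intervals of the mean effect exclude 0 for Nupr1, Atf5, Atf3, Ddit3 and Cebpg and include it for Atf4 and Cebpb.

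Atf4 encodes the factor at the head of the transcriptional response, and in textbook accounts its activity is set mainly by translation of its mRNA. At 2 weeks its level was 78.4, 58.0 and 59.9 CPM in the asparaginase libraries (replicates 1, 2 and 3), against 65.9, 51.6 and 58.5 CPM in the PBS libraries. At 8 weeks it was 56.1, 87.5 and 82.5 CPM with asparaginase and 60.9, 60.7 and 61.8 CPM with PBS, and at 16 weeks 55.2, 61.0 and 46.3 CPM with asparaginase and 56.0, 52.1 and 49.8 CPM with PBS. The groups overlapped at each age, and only asparaginase replicates 2 and 3 of 8 weeks and replicate 1 of 2 weeks stood clearly above the rest. The fitted log2 fold change was 0.21 (SE 0.15) at 2 weeks, 0.18 (SE 0.16) at 8 weeks and 0.0002 (SE 0.16) at 16 weeks. The mean effect was 0.13 (95% interval -0.07 to 0.33, adjusted p = 0.426 by edgeR), so that these data bound a mean rise of Atf4 mRNA at a log2 of about 0.33, while a smaller change was not detectable. With total counts in place of TMM the mean effect of Atf4 was 0.35 (adjusted p = 0.0239), beside a shift of the median of all genes to 0.218.

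Cebpb and Cebpg encode 2 of the C/EBP partners of ATF4. C/EBPβ is also an acute phase regulator in liver, and C/EBPγ lacks an activation domain of its own and forms the dimer that drives many amino acid synthesis genes. Cebpb overlapped between treatments at every age. Its levels were 29.9, 33.7 and 25.1 CPM with asparaginase and 37.5, 25.1 and 36.8 CPM with PBS at 2 weeks, 43.9, 59.8 and 44.7 against 42.1, 49.7 and 25.1 CPM at 8 weeks, and 46.2, 47.1 and 39.3 against 36.7, 29.6 and 54.0 CPM at 16 weeks. Its mean effect was 0.02 (95% interval -0.26 to 0.30, adjusted p = 0.961 by edgeR), and its sign changed in 9 of 26 alternative settings. Of its exon bases, 312 overlap Tmem189 on the other strand, and whether the counting used strand is not given in the sources used here.

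Cebpg rose by a small amount in the mean effect and passed at no single age. It stood at 76.1, 58.1 and 50.6 CPM with asparaginase and 44.5, 42.3 and 43.7 CPM with PBS at 2 weeks. At 8 weeks it stood at 42.3, 75.6 and 71.1 CPM with asparaginase and 42.8, 45.5 and 47.7 CPM with PBS, and at 16 weeks at 75.0, 76.4 and 77.7 CPM with asparaginase and 59.7, 45.8 and 58.8 CPM with PBS. At 8 weeks replicate 1 of asparaginase lay below every PBS library and the other 2 above all of them. The mean effect was 0.44 (SE 0.10, adjusted p = 0.0259 by edgeR), and the effects at single ages were 0.56 (SE 0.17), 0.29 (SE 0.18) and 0.46 (SE 0.17) at 2, 8 and 16 weeks, none past the threshold. The call of the mean effect was lost without asparaginase replicate 1 of 2 weeks (0.36, adjusted p = 0.164), PBS replicate 2 of 8 weeks (0.31, adjusted p = 0.0776), asparaginase replicate 3 of 16 weeks (0.41, adjusted p = 0.127), PBS replicate 3 of 16 weeks (0.47, adjusted p = 0.0627), or the 3 libraries with transcripts of both sexes (0.46, adjusted p = 0.119).

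Atf5 encodes a bZIP factor that, like ATF4, is translated preferentially when eIF2 is phosphorylated, and that is abundant in liver. At 2 weeks Atf5 stood at 751, 629 and 404 CPM with asparaginase, against 113, 132 and 177 CPM with PBS. At 16 weeks it stood at 345, 219 and 441 CPM with asparaginase, against 106, 93.0 and 74.6 CPM with PBS. Every asparaginase library of these ages was above every PBS library, and the fitted log2 fold changes were 2.08 (SE 0.32, adjusted p = 0.0170 by edgeR) and 2.03 (SE 0.33, adjusted p = 0.0258), or 4.24-fold and 4.10-fold. At 8 weeks the levels were 123, 241 and 306 CPM with asparaginase and 194, 143 and 184 CPM with PBS. Replicate 1, the one labelled female of the asparaginase group and the library with the most squamous transcripts, lay below all PBS libraries there, and replicates 2 and 3 lay above all of them. The 8-week effect was 0.16 (95% interval -0.63 to 0.96, adjusted p = 0.847), and without replicates 1 and 2 it was 1.10 (adjusted p = 1), a value that rests on 1 asparaginase library of that age. The fit compares an even mix of labelled sexes, so this value is smaller than the ratio of the group means of 223 ± 92.5 and 173 ± 27.2 CPM.

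The mean effect of Atf5 was 1.43 (SE 0.20, adjusted p = 0.00243 by edgeR), and it passed the threshold in all 26 alternative settings, with values of 1.17 to 1.74. The calls at single ages rested on single libraries. The 2-week call was lost without asparaginase replicate 1 of that age (1.54, adjusted p = 1), without PBS replicate 1 (1.94, adjusted p = 0.0694) or 2 (2.02, adjusted p = 0.0955), and without the 3 libraries with transcripts of both sexes (1.95, adjusted p = 0.545), which leaves PBS replicate 3 as the sole control of that age. The 16-week call was lost without PBS replicate 1 (2.06, adjusted p = 0.0960), 2 (1.98, adjusted p = 0.119) or 3 (2.15, adjusted p = 0.216) and without asparaginase replicate 1 (1.90, adjusted p = 0.0845) or 3 (1.91, adjusted p = 0.539), although the size of the effect moved little. In the annotation 82 exon bases of Atf5 overlap Il4i1 and Nup62 on the other strand, and reads there cannot be told apart without strand.

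Ddit3 encodes CHOP, a C/EBP family partner and inhibitor that ATF4 induces and that promotes cell death in prolonged stress. At 2 weeks it stood at 20.3, 13.1 and 10.9 CPM with asparaginase, against 5.98, 6.62 and 8.30 CPM with PBS, with no overlap. At 8 weeks it stood at 5.45, 9.57 and 14.1 CPM with asparaginase and 5.26, 7.65 and 7.79 CPM with PBS, and at 16 weeks at 6.47, 6.77 and 10.3 CPM with asparaginase and 5.04, 5.05 and 6.51 CPM with PBS. At both of these ages replicate 3 of asparaginase was the highest library, and the groups overlapped. The log2 fold change was 1.12 (SE 0.29, adjusted p = 0.115) at 2 weeks, 0.19 (SE 0.32) at 8 weeks and 0.54 (SE 0.30) at 16 weeks, and the mean effect was 0.61 (SE 0.17, adjusted p = 0.0588 by edgeR). DESeq2 called the 2-week effect (1.10, adjusted p = 0.0161). The mean effect passed in 6 of 26 alternative settings, among them the fits without PBS replicate 3 of 2 weeks (0.80, adjusted p = 0.0224) and without PBS replicate 3 of 8 weeks (0.69, adjusted p = 0.0332). The exons of Ddit3 overlap Mars on the other strand by 68 bases and a second identifier named Ddit3 on the same strand by 105.

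Atf3 encodes a stress-induced bZIP factor that is known to be turned on by ATF4 and by many other signals. It was among the least abundant members, with 26 to 247 counts per library. At 2 weeks it stood at 4.67, 1.33 and 2.09 CPM with asparaginase and 1.36, 1.49 and 1.53 CPM with PBS, at 8 weeks at 2.52, 2.19 and 6.98 against 1.95, 1.26 and 1.45 CPM, and at 16 weeks at 1.48, 1.22 and 5.12 against 2.19, 1.31 and 0.910 CPM. At each age 1 asparaginase library stood well above the others, replicate 1 at 2 weeks and replicate 3 at 8 and 16 weeks, and the groups separated at 8 weeks only. The mean effect was 1.09 (SE 0.28, adjusted p = 0.0448 by edgeR), close to the threshold, and it passed in 11 of 26 alternative settings. It was lost without the sex term (1.01, adjusted p = 0.107) and without the 3 libraries with transcripts of both sexes (1.10, adjusted p = 0.214). In the 18 fits that each left out 1 library the call was kept in 5, those without asparaginase replicate 2 or PBS replicate 3 of 2 weeks and without PBS replicate 1 or asparaginase replicate 2 or 3 of 8 weeks. In the other 13 the adjusted p was between 0.0519 and 0.245, with the mean effect at its lowest, 0.83, without asparaginase replicate 1 of 2 weeks.

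Nupr1 encodes a small chromatin-associated stress protein that ATF4 is known to induce, first described in the pancreas during pancreatitis. Its count was between 12 and 51 in PBS libraries and between 60 and 544 in asparaginase libraries. At 2 weeks it stood at 13.7, 7.90 and 6.38 CPM with asparaginase, against 1.10, 1.38 and 1.42 CPM with PBS. At 8 weeks it stood at 2.52, 1.71 and 2.60 CPM with asparaginase, against 1.34, 0.497 and 0.849 CPM with PBS, and at 16 weeks at 2.88, 2.86 and 7.71 CPM with asparaginase, against 0.360, 1.40 and 0.910 CPM with PBS. Nupr1 was the one member for which every asparaginase library exceeded every PBS library of its age at all 3 ages. The log2 fold change was 2.92 (SE 0.44, adjusted p = 0.0170 by edgeR) at 2 weeks, 1.59 (SE 0.49, adjusted p = 0.122) at 8 weeks and 2.47 (SE 0.46, adjusted p = 0.0563) at 16 weeks.

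The mean effect of Nupr1 was 2.33 (SE 0.27, adjusted p = 0.000948 by edgeR), and it passed in all 26 alternative settings with values of 2.05 to 2.59. Its 2-week call was lost without asparaginase replicate 1 of that age (2.33, adjusted p = 1), without PBS replicate 1 (2.74, adjusted p = 0.0639) or 2 (2.87, adjusted p = 0.0845), without the sex term (2.84, adjusted p = 0.0560) and without the 3 libraries with transcripts of both sexes (2.91, adjusted p = 0.633). Its 16-week effect fell to 1.65 (adjusted p = 0.709 by edgeR) without asparaginase replicate 3, and it passed in 8 of 27 alternative settings. These included DESeq2 (2.43, adjusted p = 3.35e-05), limma-voom (2.83, adjusted p = 0.0353), no filter (adjusted p = 0.00529) and total counts (adjusted p = 0.0192). The other 4 were fits without a library of another age, with adjusted p-values of 0.0400 to 0.0488. Those libraries were PBS replicates 1 and 3 and asparaginase replicate 1 of 2 weeks, and asparaginase replicate 3 of 8 weeks.

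Transcripts of pancreatic acinar cells, which normally make digestive enzymes, moved with Nupr1 in part. Summed over 15 markers, of which none was at 0 in any group, they stood at 1090, 1170 and 424 CPM with asparaginase and 101, 97.8 and 6.58 CPM with PBS at 2 weeks. At 8 weeks they stood at 152, 9.29 and 14.0 CPM with asparaginase and 11.0, 9.77 and 9.77 CPM with PBS, and at 16 weeks at 232, 12.9 and 2760 CPM with asparaginase and 12.2, 347 and 398 CPM with PBS. The 3 libraries with the most Nupr1 (asparaginase replicates 1 and 2 of 2 weeks and replicate 3 of 16 weeks) were also the 3 with the highest acinar sums. No pair of 2-week libraries had like acinar sums in both treatments, while a few libraries of 8 and 16 weeks did. At 16 weeks asparaginase replicate 2, labelled male, held 2.86 CPM of Nupr1 at an acinar sum of 12.9 CPM. PBS replicate 1 of 16 weeks, labelled female, held 0.360 CPM at 12.2 CPM, the lowest Nupr1 level of all libraries. At 8 weeks asparaginase replicates 2 and 3 held 1.71 and 2.60 CPM at sums of 9.29 and 14.0 CPM. The 8-week PBS libraries held 1.34, 0.497 and 0.849 CPM at 9.77 to 11.0 CPM. PBS replicates 2 and 3 of 16 weeks, with sums of 347 and 398 CPM, held 1.40 and 0.910 CPM of Nupr1. The part of acinar RNA in the size of the Nupr1 effect was not tested.

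**Figure D3:**
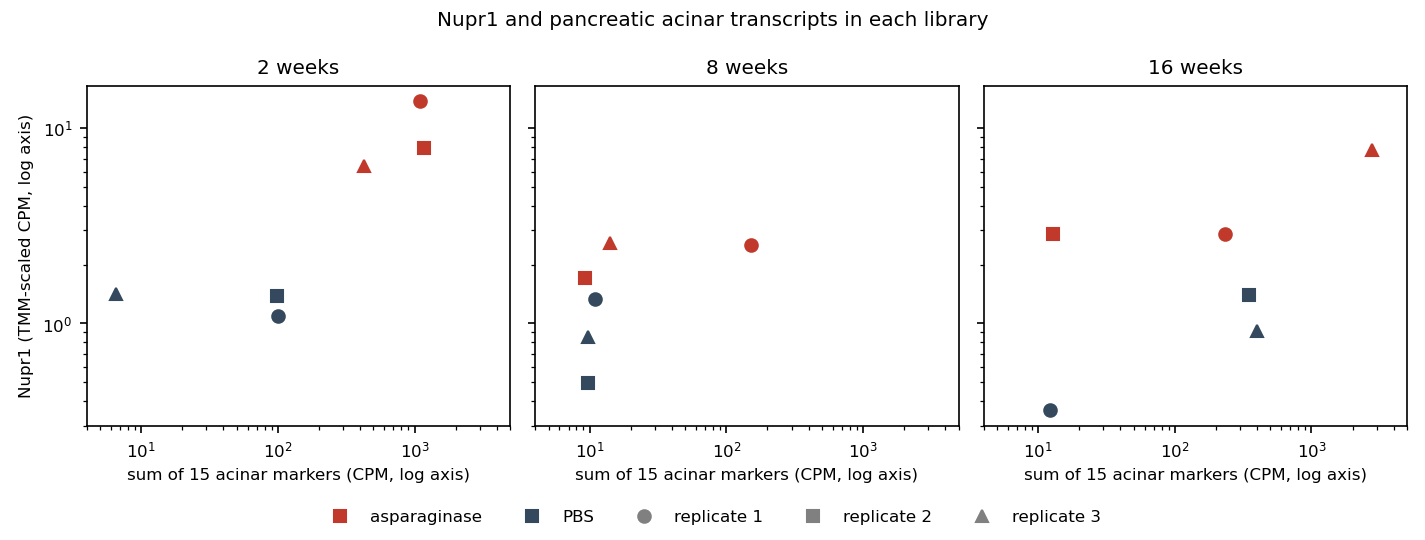
Nupr1 in each library (vertical axis, TMM-scaled CPM, log scale) against the sum of 15 pancreatic acinar markers (horizontal axis, CPM, log scale), in 1 panel per age, with asparaginase in red and PBS in dark blue. At 16 weeks asparaginase replicate 2 (labelled male) and PBS replicate 1 (labelled female) have acinar sums of 12.9 and 12.2 CPM. Their Nupr1 levels are 2.86 and 0.360 CPM, the latter the lowest of all libraries. At 8 weeks asparaginase replicate 2 and PBS replicate 1 have sums of 9.29 and 11.0 CPM and Nupr1 levels of 1.71 and 1.34 CPM.

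Asns, the target of the pathway, separated by treatment at all 3 ages. It stood at 30.7, 26.4 and 19.4 CPM with asparaginase against 3.47, 3.93 and 3.69 CPM with PBS at 2 weeks, at 4.15, 7.95 and 14.2 against 0.893, 3.94 and 0.924 CPM at 8 weeks, and at 27.99, 27.77 and 13.1 against 0.749, 0.555 and 1.51 CPM at 16 weeks. The log2 fold changes were 2.85 (SE 0.22), 1.80 (SE 0.24) and 4.27 (SE 0.26) at 2, 8 and 16 weeks, all past the threshold. The 8-week call was lost in 11 of 27 alternative settings, among them the fits without asparaginase replicates 1 and 2 of that age (1.85, adjusted p = 0.123 by edgeR), without the 3 libraries with transcripts of both sexes (1.82, adjusted p = 0.053), without the sex term (2.21, adjusted p = 0.118) and of 8-week libraries alone (2.23, adjusted p = 0.488). It was lost in 7 of the 18 fits that left out 1 library, with the largest change without asparaginase replicate 1 of that age (1.502, adjusted p = 0.862 by edgeR), and otherwise without PBS replicate 3 of 8 weeks, PBS replicate 2 or asparaginase replicate 2 of 2 weeks, or PBS replicate 1 or 2 or asparaginase replicate 1 of 16 weeks (adjusted p of 0.0534 to 0.0741). The 2-week call was lost without asparaginase replicate 1 (2.63, adjusted p = 0.141), without the 3 libraries with transcripts of both sexes (2.93, adjusted p = 0.0774) and without the sex term (2.78, adjusted p = 0.0849), and the 16-week call in none of the 18. Within the asparaginase groups Asns and the factors did not rank libraries alike. At 16 weeks replicate 3 had the least Asns of its group and the most Nupr1, Atf5, Atf3 and Ddit3. At 2 weeks replicate 1 had the most of Asns and of 6 of the 7 factors, all but Cebpb. Both libraries were among the 3 with the highest acinar sums, at 2760 and 1090 CPM. The part of acinar RNA in the levels of these factors was not tested.

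No member passed a test for a difference of its response between ages. The joint test over the 3 ages called 0 of 7 members and 0% of all 16213 genes by edgeR, where 1529 genes had an unadjusted p under 0.05. Atf5 had the lowest adjusted p of the members, 0.311, with an effect at 8 weeks that was lower by 1.92 (SE 0.48) on the log2 scale than at 2 weeks and an effect at 16 weeks that was 1.87 (SE 0.49) above that at 8 weeks. Taken pair by pair, 0 of 7 members passed by edgeR, as did 0% of all genes for 8 or 16 against 2 weeks and 0.0123% for 16 against 8 weeks. DESeq2 called 155 genes in this joint test, Atf5 among them (adjusted p = 0.00401), and it called Atf5 for 8 against 2 weeks (adjusted p = 0.00432) and 16 against 8 weeks (adjusted p = 0.00258), while limma-voom called 1, which was not a member. For Atf4 the intervals of the pairwise differences lay between -0.69 and 0.45. They leave room for differences larger than its fitted effect at any single age. For Nupr1 they reach from -2.77 to 2.35. Asns, which is not a member, had a joint adjusted p of 0.0953 by edgeR and 2.48e-06 by DESeq2. Its effect at 16 weeks was 2.46 (SE 0.35) above that at 8 weeks (adjusted p = 0.0538 by edgeR and 2.4e-07 by DESeq2).

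In PBS livers Atf5 was the one member whose level changed with age by edgeR. Over the 3 ages 1 of 7 members passed the joint test, Atf5 (adjusted p = 0.0477 by edgeR), in a comparison that called 33.2% of all tested genes. Atf5 averaged 140 ± 32.7 CPM at 2 weeks, 173 ± 27.2 CPM at 8 weeks and 91.1 ± 15.7 CPM at 16 weeks, and none of its pairwise age differences passed by edgeR, in comparisons that called 31.7% (8 over 2 weeks), 27.8% (16 over 2 weeks) and 0.413% (16 over 8 weeks) of all genes. The 16-week level was lower than the 8-week level (log2 -1.12, 95% interval -1.83 to -0.41), which DESeq2 called (adjusted p = 0.00853), as it did 16 over 2 weeks (-0.72 by edgeR, -0.73 and adjusted p = 0.0467 by DESeq2). With total counts in place of TMM 16 over 2 weeks also passed (-1.52, adjusted p = 0.00142), beside a median shift of all genes of -0.8. The joint call was lost without the sex term (adjusted p = 0.106) and was kept in 6 of 18 fits that left out 1 library, those without asparaginase replicate 1 or 3 or PBS replicate 1 of 2 weeks, PBS replicate 2 of 8 weeks, or asparaginase replicate 1 or 3 of 8 weeks, and elsewhere the adjusted p rose to between 0.0530 and 0.136. Asns was lower by edgeR in PBS livers of 8 weeks than of 2 weeks (-0.94, SE 0.24, adjusted p = 0.0105). This call was lost without the sex term (adjusted p = 0.217) and without PBS replicate 3 of 2 weeks (-0.79, adjusted p = 0.103). The 8-week PBS libraries labelled female held 0.893 and 0.924 CPM. The one labelled male held 3.94 CPM, against 3.47 to 3.93 CPM in the 2-week PBS libraries. Asns was also lower in PBS livers of 16 weeks than of 2 weeks (-1.87, SE 0.26, adjusted p = 0.000269 by edgeR). With asparaginase Asns was 19.2-fold higher at 16 weeks and 7.21-fold higher at 2 weeks. The difference of these effects did not pass by edgeR (log2 1.42, SE 0.34, adjusted p = 0.28), while DESeq2 called it (1.42, adjusted p = 0.0297). The control level was 0.936 ± 0.502 CPM at 16 weeks and 3.70 ± 0.233 CPM at 2 weeks. The asparaginase levels were 23.0 ± 8.52 and 25.5 ± 5.72 CPM.

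Of 44 other bZIP genes tested, 0 passed at any single age by edgeR, where 0.234% to 0.432% of all genes did. In the mean effect 2 rose, close to the share over all genes (2.55% higher), Bach1 by 0.45 (SE 0.10) and Fosl2 by 0.42 (SE 0.11), with a median over the list of 0.07. Bach1, a repressor of antioxidant genes, stood at 51.0 ± 12.8 CPM with asparaginase and 36.7 ± 6.71 CPM with PBS at 16 weeks, and Fosl2, an AP-1 subunit, at 13.6 ± 0.307 and 10.2 ± 2.59 CPM at 2 weeks. Cebpa, which encodes the main C/EBP of resting hepatocytes, had a mean effect of -0.04 (95% interval -0.20 to 0.12). Among 21 tested immediate early genes, which respond within minutes to many stimuli, 1 rose in the mean effect, Nr4a1 by 0.64 (SE 0.16), and Fos and Jun did not pass (0.23, adjusted p = 0.402, and 0.44, adjusted p = 0.191).

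Genes above the factors encode eIF2, its kinases, its exchange factor, its phosphatase and other regulators of translation. Of 20 tested, 2 passed in the mean effect, where 5.41% of all genes did. Eif4ebp1, a translation repressor that ATF4 induces, rose by 0.49 (SE 0.11) in the mean effect, and Eif2ak2, the kinase of viral RNA sensing, fell by 0.47 (SE 0.10). The list's median was 0.0018. Eif2ak4, which encodes GCN2, had a mean effect of -0.06 (95% interval -0.23 to 0.11), at 11.9 ± 1.85 CPM with asparaginase and 12.9 ± 0.999 CPM with PBS at 2 weeks. No gene of this list passed at a single age (0 of 20 at 2, 8 and 16 weeks by edgeR), where 0.234% to 0.432% of all genes did.

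Among target genes below the factors, those of amino acid synthesis rose in the largest share, where 2.55% of all genes rose in the mean effect. The target lists were also chosen with earlier results of these data known, so their shares are descriptions and no tests. Of 15 amino acid synthesis genes, 2 rose at 2 weeks, 5 at 8 weeks and 7 at 16 weeks, against 0.327%, 0.191% and 0.191% of all genes. In the mean effect 11 rose, and 0 fell in any of these comparisons. The medians of the list were 0.45, 1.00, 1.73 and 1.04 at these ages and in the mean effect (all genes: -0.0075, 0.0064, 0 and 0.0046). Psat1 of serine synthesis stood at 11.5 ± 4.70 CPM with asparaginase and 3.64 ± 0.280 CPM with PBS at 2 weeks, 4.93 ± 2.04 against 0.950 ± 0.137 CPM at 8 weeks, and 19.1 ± 1.49 against 0.570 ± 0.104 CPM at 16 weeks. At 8 weeks, where 0 of 7 factors passed, Asns, Pck2, Psat1, Mthfd2 and Phgdh passed. These calls were lost in fits where 0 of all genes passed at 8 weeks. Among those fits were the ones without asparaginase replicate 1 or PBS replicate 3 of 8 weeks, and the one of 8-week libraries alone. Of 24 feedback and secreted targets, 4 rose in the mean effect, Trib3 by 2.25 (SE 0.23), Fgf21 by 3.42 (SE 0.46), Sesn2 by 0.70 (SE 0.13) and Eif4ebp1. Trib3 alone passed at a single age, at 2 weeks. Without asparaginase replicate 1 of 2 weeks 0 of all genes passed at that age. The 2-week calls of Trib3 and of the 2 amino acid synthesis genes were thus lost there. Trib3, a pseudokinase that binds and restrains ATF4 and CHOP, stood at 37.4 ± 25.9 CPM with asparaginase and 5.35 ± 1.28 CPM with PBS at 2 weeks, 27.9 ± 1.34 against 7.99 ± 3.39 CPM at 8 weeks, and 23.3 ± 13.7 against 6.13 ± 0.662 CPM at 16 weeks. Ppp1r15a, which encodes the phosphatase subunit GADD34 and closes the feedback loop, did not pass, with a mean effect of 0.13 (95% interval -0.14 to 0.40).

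Of 10 tested amino acid transporters, 4 rose in the mean effect, where 2.55% of all genes did. They were Slc38a7 by 0.27 (SE 0.04), Slc7a1 by 1.26 (SE 0.22), Slc7a5 by 0.49 (SE 0.11) and Slc3a2 by 0.48 (SE 0.12). Slc38a7 alone passed at a single age, 2 weeks, where 0.327% of all genes rose. Of 12 aminoacyl-tRNA synthetases known as ATF4 targets, 3 rose in the mean effect, Gars by 0.53 (SE 0.07), Sars by 0.52 (SE 0.09) and Iars by 0.30 (SE 0.07). At single ages Sars passed at 2 weeks and Gars at 16 weeks, where 0.191% of all genes rose. Without asparaginase replicate 1 of 2 weeks 0 of all genes passed at that age, so the calls of Slc38a7 and Sars were lost there. Acute phase genes, which C/EBPβ also drives, moved both ways. Of 28, 7 rose and 2 fell in the mean effect, where 5.41% of all genes were called in either direction. The rises were led by Serpina3n (0.58, SE 0.09) and Il1rn (1.04, SE 0.16), and the falls were Saa4 (-0.61, SE 0.13) and Serpina3m (-0.42, SE 0.09). The summed Kupffer cell and macrophage markers stood at 272 to 335 CPM in 8-week asparaginase libraries and 361 to 692 CPM in 8-week PBS libraries, with none of 12 markers at 0, and their part in these results was not tested.

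Across the libraries, with group means removed, no pair of genes passed a test for correlation after adjustment. Of 28 pairs among the 7 members and Asns, 21 had a positive Pearson r, 3 had an unadjusted p under 0.05 and 0 an adjusted one (exact permutation within groups over 46656 arrangements, two-sided, lowest adjusted p = 0.343). Ddit3 with Cebpg had r = 0.77 and rho = 0.70 (exact p = 0.0134, adjusted p = 0.343), and r was 0.62 without the 2 libraries farthest from the median of Ddit3. Atf4 with Cebpg had r = 0.77 and rho = 0.67 (exact p = 0.0414, adjusted p = 0.343), with 0.54 on the same terms. Within groups r was 0.80 at 2 weeks, 0.99 at 8 weeks and 0.0042 at 16 weeks (6 libraries each). The 8-week value rested mainly on the 3 asparaginase libraries, of which replicate 1 deviated most, by -0.40 (Atf4) and -0.53 (Cebpg). The 8-week PBS libraries lay close to their group mean in both genes. Atf5 with Ddit3 had r = 0.70 and rho = 0.65 (exact p = 0.0321, adjusted p = 0.343), and r was 0.58 without the 2 farthest libraries. Nupr1 with Asns had r = -0.39. With total counts in place of TMM 10 pairs passed, a scaling in which the share of Mup transcripts, 0.046% to 47.9% of the counts of a library, enters the level of every other gene.

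Over all 18 libraries without removing group means, r was highest for Atf5 with Nupr1 (0.86), Atf5 with Ddit3 (0.83), Atf5 with Asns (0.80) and Nupr1 with Asns (0.79), and it was 0.30 for Atf4 with Asns. These values are descriptions, since libraries of a group share age and treatment. Within ages, 6 libraries each, Atf5 with Nupr1 had r = 0.99, 0.37 and 0.85 at 2, 8 and 16 weeks, but with group means removed 0.83, 0.20 and 0.28.

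**Figure D4:**
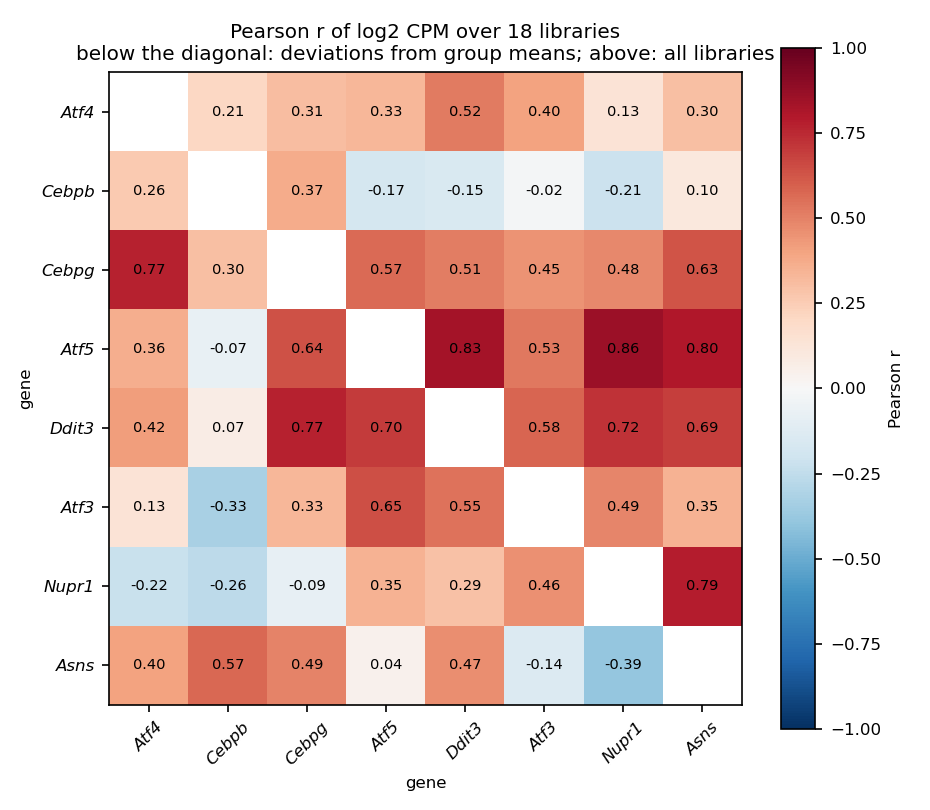
Pearson r of log2 CPM between the 7 genes and Asns over 18 libraries, as a heat map with the value in each cell (colour scale from -1 to 1). Below the diagonal group means were removed and above it they were not; Nupr1 with Asns is 0.79 above the diagonal and -0.39 below it.

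Among 11778 other tested genes with a mean of at least 1 CPM and a common symbol, those most like each member over the 18 libraries were named by the highest r of log2 CPM. For Nupr1 these were Arhgef2 (0.96), Ctsl (0.91), a lysosomal protease, and Gpat3 (0.90), an enzyme of triglyceride synthesis. For Atf5 they were Abca8b (0.91), a lipid transporter, and again Arhgef2 (0.90) and Ctsl (0.89). Arhgef2 stood at 24.3 ± 7.31 CPM with asparaginase and 6.42 ± 1.88 CPM with PBS at 2 weeks, 8.11 ± 1.52 and 4.32 ± 1.15 CPM at 8 weeks, and 14.4 ± 4.23 and 4.16 ± 0.221 CPM at 16 weeks. For Cebpg they were Adpgk (0.91), the tRNA exporter Xpot (0.91) and the tRNA synthetase Iars (0.90), and for Ddit3 the mitochondrial chaperone Dnaja3 (0.87), Pole4 (0.86) and Trp53inp1 (0.86). For Cebpb they included Pim3 (0.84) and Mbd1 (0.81). For Atf4 (Fbxl17, Rnf185 and Twnk, at most 0.74) and Atf3 (Reps1, Cd3eap and Plekhh3, at most 0.76) the closest genes were less close. These ranks come from a search of all genes on shared libraries and carry no test.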

How the data were processed

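RNA of 18 liver samples was sequenced, and the deposited table of raw counts per gene was used as the authors left it. The builds GRCm38 and mm10 and the tools TopHat, TopHat2 (2.0.9) and DESeq2 are named, without roles, per the submitters' processing notes. How reads were counted, on which annotation and whether by strand, is not given in the sources used here. Of 37315 gene IDs 35449 matched a symbol; positions are from GENCODE M21 (GRCm38) and promoters from RefSeq GRCm38.p6. Genes were filtered with filterByExpr (minimum count 10, minimum total 15) and fitted in edgeR 4.0.16 (R 4.3.3) with TMM scaling, 6 group terms and a sex term within each age (9 residual degrees of freedom), so that each fold refers to an even mix of labelled sexes. P-values were adjusted over the 16213 tested genes within a comparison (Benjamini-Hochberg, threshold 0.05), and an SE is the log2 fold change over the root of its F statistic. Correlations used log2 CPM (prior count 2). Alternatives were RLE or total-count scaling, no filter, DESeq2 1.42.0, limma-voom 3.58.1, no sex term, single ages, and libraries left out. Fits of single ages also had no sex term. The fit without the 3 libraries with transcripts of both sexes had no sex term at 2 weeks. Scripts were tested on simulated data. The members and gene lists were chosen with earlier results of these data known. Named genes were the 7 members and Asns, up to 4 genes per list and comparison past the threshold by smallest p, and the 3 closest patterns per member (1 of those of Cebpb is not reported here); Cebpa, Eif2ak4, Fos, Jun, Phgdh, Ppp1r15a, Saa4 and Serpina3m were named after their values were seen.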

Additional observations from a re-analysis of the deposited data

How the results depend on the processing

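No paired analysis was possible because the replicate numbers follow accession order and pair no mice. The number of members called, 2, 0, 1 and 4 at 2, 8 and 16 weeks and in the mean effect, moved as follows. With total counts alone it was 4 at 8 weeks, 2 at 16 weeks, 6 in the mean effect and 6 for age in PBS livers, with 10 correlated pairs. Total counts also shifted the median of all genes by 0.371 (8 weeks), 0.247 (16 weeks), -0.723 (PBS, 8 over 2 weeks) and -0.8 (PBS, 16 over 2 weeks), and turned the PBS age effects of Atf4 (-0.57), Cebpb (-0.47) and Cebpg (-0.54) at 8 over 2 weeks and of Cebpb (-0.48) at 16 over 2 weeks. DESeq2 called 3 at 2 weeks, 1 at 8 weeks, 2 at 16 weeks, 5 in the mean effect and 1 difference between ages. No filter and limma-voom each called 2 at 16 weeks, and no filter 5 in the mean effect. Without the sex term 1 was called at 2 weeks and 0 for age in PBS livers. Without the 3 libraries with transcripts of both sexes 0 were called at 2 weeks and 2 in the mean effect. Fits of 1 age alone called 0 at 2 weeks and 0 at 16 weeks. Leaving out each library in turn called 0 to 2 at 2 weeks, 0 to 0 at 8 weeks, 0 to 2 at 16 weeks, 2 to 5 in the mean effect, 0 to 0 differences between ages, 0 to 1 for age in PBS livers and 0 to 0 correlated pairs. A group left with 1 library was assumed to vary like the others.

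Over all genes 70, 59, 38 and 877 were called at 2, 8 and 16 weeks and in the mean effect, 0 for the difference between ages and 5376 for age in PBS livers. With total counts these were 27, 3111, 178 and 4283, and 12585 for age. With no filter they were 114, 445, 83 and 849, with 28 differences. DESeq2 called 452, 659, 322 and 1513, and 155 differences, and limma-voom 169, 53, 38 and 924, and 1 difference. Without the sex term 6, 2, 19 and 528 were called, without the 3 libraries with transcripts of both sexes 0, 0, 29 and 97 (age 3088), without asparaginase libraries 1 and 2 of 8 weeks 30, 0, 38 and 87, and at 1 age alone 2, 0 and 16. Leaving out 1 library gave 0 to 265, 0 to 398, 5 to 52 and 134 to 1271, with 0 to 15 differences and 2085 to 6083 for age. Alternatives were run gene by gene for the 7 members and Asns, not for genes of the other lists. Where 0 of all genes were called, those genes lost their calls too. Of the single values 2901 kept direction and side of the threshold, 136 changed sign without a call in either fit, 56 gained and 67 lost a call, and 4 reversed. With 12 to 51 counts of Nupr1 and 26 to 73 of Atf3 in PBS libraries, small changes of these genes were not detectable.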
